A study of Mus musculus with 9 samples.

Results

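The regions described here held KDM6A intervals in both MTX libraries, in neither control library, and no IgG interval. There were 1090 of them among 82424 regions of the whole series. KDM6A, also called UTX, is an enzyme that removes repressive methyl groups from histone H3. Chromatin immunoprecipitation with sequencing (ChIP-seq), which pulls down DNA bound by a protein with an antibody and sequences it, was applied to mouse embryonic stem cells of the Sv129 background. The control cells were labelled wild type. The other cells were given 0.12 µM MTX for 24 h and carry the genotype label folate deficiency. All cells were grown on gelatin with LIF and serum. The series has 2 control and 2 MTX libraries with anti-KDM6A, 1 IgG library of MTX cells, and 4 inputs. The interval lists of the KDM6A and IgG immunoprecipitations were used. Binding data hold no expression values, so the identity of the cells could not be checked by markers.

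Regions were chosen by the presence of deposited intervals. Touching or overlapping intervals of the 4 KDM6A lists were merged, and a region was kept on autosomes other than 11 when both MTX libraries and neither control library had an interval in it. This left 1421 regions, of which 331 overlapped an IgG interval and were set aside. The 1090 that remained are called MTX-only regions below. They were 1.73% of the 63012 regions without IgG on the same autosomes, a share that the choice itself fixes. The number depended on the libraries asked for: it was 1703 without control library 1, 1415 without control library 2, 12964 without MTX library 1 and 10674 without MTX library 2. They made up 7.30% of the regions without IgG of MTX library 1 and 6.09% of those of MTX library 2. Since presence chose them, their absence from the control lists is not a finding, and with 2 libraries against 2 an exact permutation test can give no p below 0.33. No test is given for that reason, and every value below is a description.

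KDM6A works in complexes with the histone methyltransferases KMT2C and KMT2D, which mark active enhancers, and it acts against Polycomb repressive complex 2, which places the methyl groups that KDM6A removes. In embryonic stem cells these activities are known for their part at developmental genes and at enhancers away from gene starts. MTX is read here as methotrexate, an antifolate that blocks dihydrofolate reductase and so drains the folate pool that feeds nucleotide synthesis and methylation.

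The lists differed in length before any choice was made. Control library 1 had 44838 intervals and control library 2 had 21228, while MTX libraries 1 and 2 had 24177 and 28976. Reads within intervals ranged from 3251202 to 4192029 per KDM6A library, and total sequencing depth is unknown. The labels do not say whether a group had separate cultures, so agreement between its libraries may be technical. IgG was measured in MTX cells only, and its list and that of MTX library 1 gave equal background reads in 52 of 52 identical intervals.

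The sequences that bear most directly on gene starts are 5 promoter windows of 300 bases, 250 before and 50 after a gene's start. They are shown because they belong to the first MTX-only regions by rank in which a window lay wholly inside intervals of both MTX libraries. Sequences are from RefSeq on GRCm38.p6, 5′ to 3′ on the gene's strand, with CpG dinucleotides in capitals. Vmn1r15 and Olfr982 encode a vomeronasal and an olfactory receptor, Dhx29 an RNA helicase of translation initiation, Hebp1 a haem-binding protein and Mindy2 a deubiquitinase. The region over the Dhx29 window also held the start of Mtrex on the opposite strand, which is not printed. The windows are chr6:57257899-57258198 on the plus strand (Vmn1r15), chr9:40074047-40074346 on the plus strand (Olfr982), chr13:112927430-112927729 on the plus strand (Dhx29), chr6:135168166-135168465 on the minus strand (Hebp1) and chr9:70657098-70657397 on the minus strand (Mindy2).
Vmn1r15: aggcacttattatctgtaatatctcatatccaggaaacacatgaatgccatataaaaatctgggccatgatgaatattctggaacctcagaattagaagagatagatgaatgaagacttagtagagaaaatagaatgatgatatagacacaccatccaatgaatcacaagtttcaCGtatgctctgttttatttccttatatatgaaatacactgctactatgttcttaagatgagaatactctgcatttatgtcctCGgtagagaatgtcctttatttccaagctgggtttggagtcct
Olfr982: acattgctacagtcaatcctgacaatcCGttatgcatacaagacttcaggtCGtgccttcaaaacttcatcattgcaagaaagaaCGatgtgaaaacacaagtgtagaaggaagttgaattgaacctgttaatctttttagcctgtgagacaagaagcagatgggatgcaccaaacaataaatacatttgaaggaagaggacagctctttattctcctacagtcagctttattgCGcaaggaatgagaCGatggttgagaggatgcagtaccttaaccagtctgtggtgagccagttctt
Dhx29: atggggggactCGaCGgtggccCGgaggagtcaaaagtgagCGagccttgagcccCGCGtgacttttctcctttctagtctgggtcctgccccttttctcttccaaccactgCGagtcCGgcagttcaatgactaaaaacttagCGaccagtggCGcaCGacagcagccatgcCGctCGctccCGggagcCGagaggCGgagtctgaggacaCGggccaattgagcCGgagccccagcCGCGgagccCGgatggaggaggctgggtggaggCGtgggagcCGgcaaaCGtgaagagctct
Hebp1: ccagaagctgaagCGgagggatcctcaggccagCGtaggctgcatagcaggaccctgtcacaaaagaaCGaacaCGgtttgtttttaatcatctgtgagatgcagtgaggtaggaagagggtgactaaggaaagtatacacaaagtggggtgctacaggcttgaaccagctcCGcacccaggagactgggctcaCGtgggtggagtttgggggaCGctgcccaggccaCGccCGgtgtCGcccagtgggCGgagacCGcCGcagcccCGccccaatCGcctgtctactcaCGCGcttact
Mindy2: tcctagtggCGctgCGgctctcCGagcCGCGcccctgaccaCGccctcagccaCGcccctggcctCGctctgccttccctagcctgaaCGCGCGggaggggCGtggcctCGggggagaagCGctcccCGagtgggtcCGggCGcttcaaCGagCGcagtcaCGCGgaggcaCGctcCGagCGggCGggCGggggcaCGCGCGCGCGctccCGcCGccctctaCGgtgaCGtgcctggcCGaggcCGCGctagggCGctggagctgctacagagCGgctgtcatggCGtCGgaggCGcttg
The windows run from CpG-poor to CpG-dense. Vmn1r15 had 2 CpG dinucleotides and Olfr982 had 5, against 17 in Hebp1, 24 in Dhx29 and 43 in Mindy2.

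The MTX-only regions overlapped 3 microRNA genes (Mir3471-1, Mir1902 and Gm51265), whose mature sequences are printed 5′ to 3′ with the seed (bases 2 to 8) in capitals. No seed is shared between them.
mmu-miR-3471: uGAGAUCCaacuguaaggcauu
mmu-miR-1902: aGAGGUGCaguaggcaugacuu
mmu-miR-5104b-5p: uGGGCCAUcucuuuaguccaga
The first lies at chr4:10845585-10845606, the second at chr2:104428871-104428892 and the last at chr1:134946278-134946299, all on the minus strand. The regions over them had folds over background of 1.19 and 2.24 (mmu-miR-3471), 1.34 and 1.22 (mmu-miR-1902), and 1.03 and 1.32 (mmu-miR-5104b-5p) in MTX libraries 1 and 2.

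Most MTX-only regions lay away from gene ends. Of the 1090, 528 had their midpoint inside a protein-coding gene, more than 1 kb from both of its ends, or 48.4% (exact 95% interval 45.4 to 51.5). Only 107, or 9.82% (8.11 to 11.7), reached within 1 kb of a gene end, and 50 of these were counted inside a gene as well. A further 435, or 39.9% (37.0 to 42.9), lay over 10 kb from any protein-coding gene. These intervals cover counting error only.

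Other classes of regions without IgG had a similar layout. Control-only regions, the reverse case, numbered 1480, with 51.6% inside genes, 8.85% at gene ends and 36.2% over 10 kb away. Over all 63012 regions the shares were 45.1%, 8.75% and 42.0%. For all 3 shares the 95% interval of the MTX-only regions overlapped that of the control-only regions. The 2084 regions of control library 1 and MTX library 1 alone stood apart, with 17.1% at gene ends (15.5 to 18.8) and 30.3% over 10 kb away (28.4 to 32.4). The other mixed pairs of 1 control and 1 MTX library had 7.77% to 9.51% at gene ends. These pairs also bear on the number of regions: 2345 regions were found in control library 1 and MTX library 2 alone, 1081 in control library 2 and MTX library 2, and 778 in control library 2 and MTX library 1. The number of MTX-only regions, 1090, fell between the lowest and highest of these 4 pairs.

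**Figure D1:**
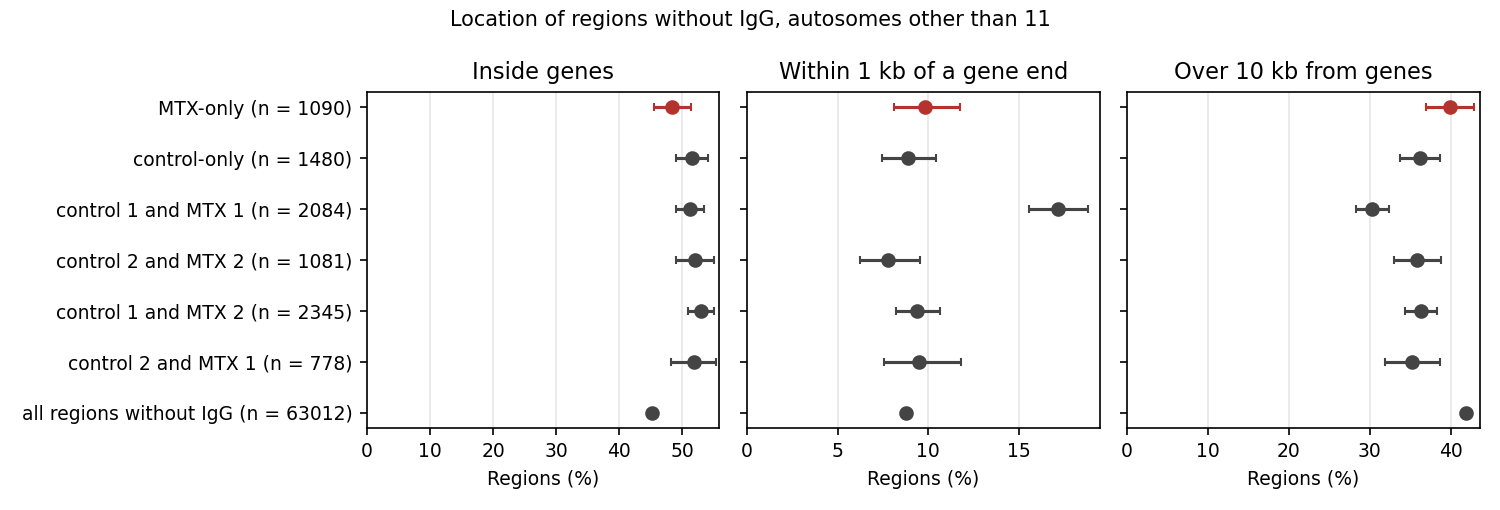
Share of regions inside genes, at gene ends and over 10 kb from protein-coding genes (percent), for MTX-only regions and the other classes of regions without IgG, with exact 95% intervals as bars. The MTX-only shares of 48.4%, 9.82% and 39.9% lie near those of control-only regions, and the pair of control 1 and MTX 1 is the highest at gene ends with 17.1%.

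Reads were shallow and exceeded background by a modest factor. Fold here means immunoprecipitated over background reads, scaled by 1 constant per library. The median MTX-only region had 115 immunoprecipitated and 83 background reads in MTX library 1 and a fold of 1.50, with quartiles of 1.29 and 1.81 and extremes of 0.784 and 7.01. In MTX library 2 it had 121 and 89 reads and a fold of 1.53, with quartiles of 1.31 and 1.89 and extremes of 0.800 and 5.91. Across all intervals of these libraries on the same autosomes the median fold was 1.47 and 1.56, close to the medians of the MTX-only regions. The deposited adjusted p of the best interval was under 0.05 in both MTX libraries in 848 regions, or 77.8% (75.2 to 80.2). The same held for 71.7% of the 4107 regions that both MTX libraries had, with or without IgG or control intervals, the MTX-only regions among them. In their own 2 libraries, 78.0% of control-only regions were called in both, and 66.9% to 80.2% of regions of the mixed pairs. Among MTX-only regions it held in 1 library only in 215 and in neither in 27.

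The folds of the 2 MTX libraries were only loosely related. A fold of 2 was reached by 177 regions in MTX library 1, by 218 in MTX library 2 and by 53 in both. Both folds reached 3 in 2 regions, while 30 regions in MTX library 1 and 26 in MTX library 2 had a fold under 1. Across the 1090 regions the log2 folds of the 2 libraries had a Pearson r of 0.23 and a Spearman rho of 0.22, as a description over regions of 1 pair of libraries. The values for the other pairs of libraries, each over its own regions, were 0.12 to 0.29 over both measures. The region with the highest fold in MTX library 1 lay 709 kb from Man1a, at chr10:54785801-54790600. It had 85 immunoprecipitated and 13 background reads in that library, and 125 and 85 in MTX library 2, where the fold was 1.65. Both folds were under 1 in 2 regions, one inside Gak (0.931 and 0.849) and one at chr9:3035001-3036200, 299 kb from Alkbh8 (0.793 and 0.800).

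**Figure D2:**
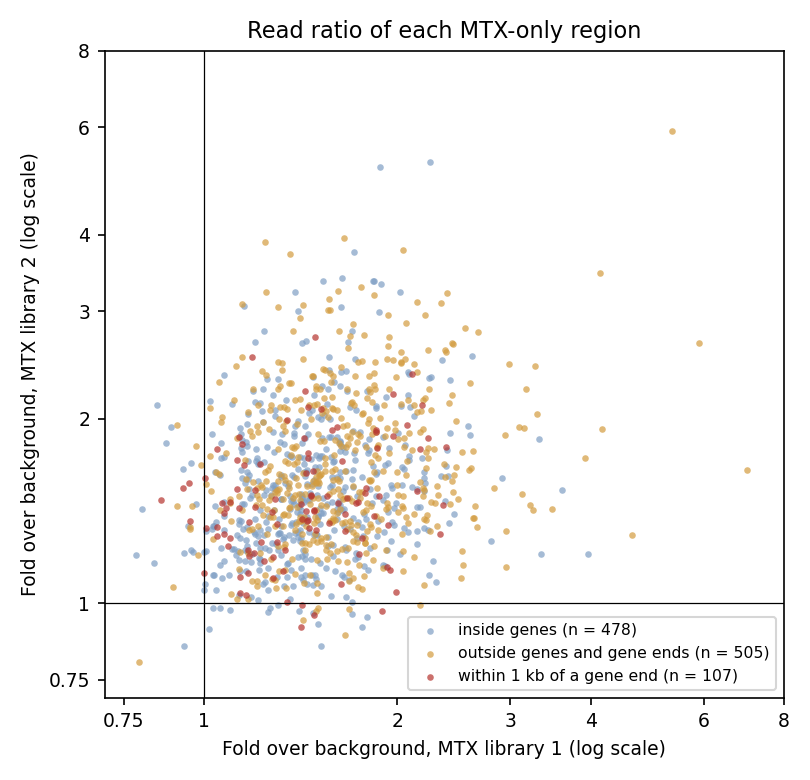
Fold over background in MTX library 1 (x axis) and MTX library 2 (y axis), both log scales, with 1 point per MTX-only region coloured by location. The points centre on 1.50 and 1.53 and form a round cloud (Pearson r of the log2 folds 0.23), and the points with both folds above 3 lie outside genes and gene ends.

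The 2 MTX libraries marked the same bases only in part. A region was 5400 bp wide at the median, from 600 to 14400, and all of them covered 6.15 Mb. In 1047 regions, 96.1%, intervals of the libraries shared bases, and in 43 they only touched. At the median 37.9% of the covered bases were common to both, against 37.5% in control-only regions and 36.4% to 40.5% in the mixed pairs. The common part was at least 50% of the shorter cover in 753 regions.

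Control intervals were often close by. The nearest control interval lay 7.2 kb away at the median, 118 regions had one within 1 kb and 429 within 5 kb. The nearest interval of control library 1 was 10.9 kb away and that of control library 2 was 24.8 kb away, in the order of their list lengths. IgG intervals were 21.6 kb away at the median, 51 regions had one within 1 kb, and 8 touched one without overlap. Neither a control nor an IgG interval lay within 10 kb of 350 regions, or within 50 kb of 35. At the edge of the rule, the 118 regions with a control interval within 1 kb had median folds of 1.44 and 1.50, and the other 972 had 1.51 and 1.54. Just outside it, 50 regions of both MTX libraries whose control intervals shared at most 400 bp with MTX intervals had 1.46 and 1.59. The 331 regions set aside for IgG had 1.48 and 1.51, close to those kept.

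**Figure D3:**
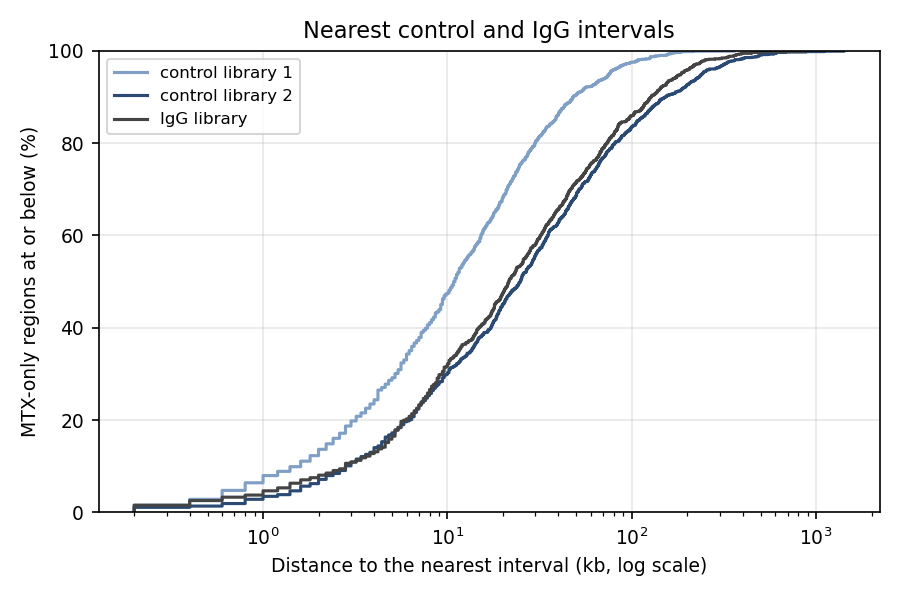
Cumulative share of MTX-only regions (percent) by distance to the nearest interval of control library 1, control library 2 and IgG (kb, log scale), with touching intervals drawn at the left edge. The curve of control library 1 (median 10.9 kb) lies left of IgG (21.6 kb) and control library 2 (24.8 kb).

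Regions away from genes had the higher folds, and background reads moved with this more than immunoprecipitated reads did. Immunoprecipitated reads per kb stayed between 32.2 and 33.9 (medians, MTX library 1) and between 33.6 and 34.5 (MTX library 2) at every distance from genes. Over all intervals of these libraries on the same autosomes the medians were 33.5 and 34.2. Intervals were called from these reads, so their level is not independent of the choice of regions. Background reads per kb were 25.3 and 26.8 at gene ends and 19.7 and 19.3 in the 51 regions over 500 kb from genes. Accordingly the median fold was 1.44 in both libraries at gene ends, and 1.82 and 1.94 over 500 kb away. The same gradient was present in all intervals of the IgG library, from 1.36 at gene ends to 1.87 over 500 kb away. It was present in all intervals of the control libraries too, from 1.44 to 2.09 in control library 1 and from 1.36 to 1.74 in control library 2. A rise of the fold with distance from genes was thus measured in MTX-only regions, controls and IgG alike, and the part of the background reads in it was not tested.

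**Figure D4:**
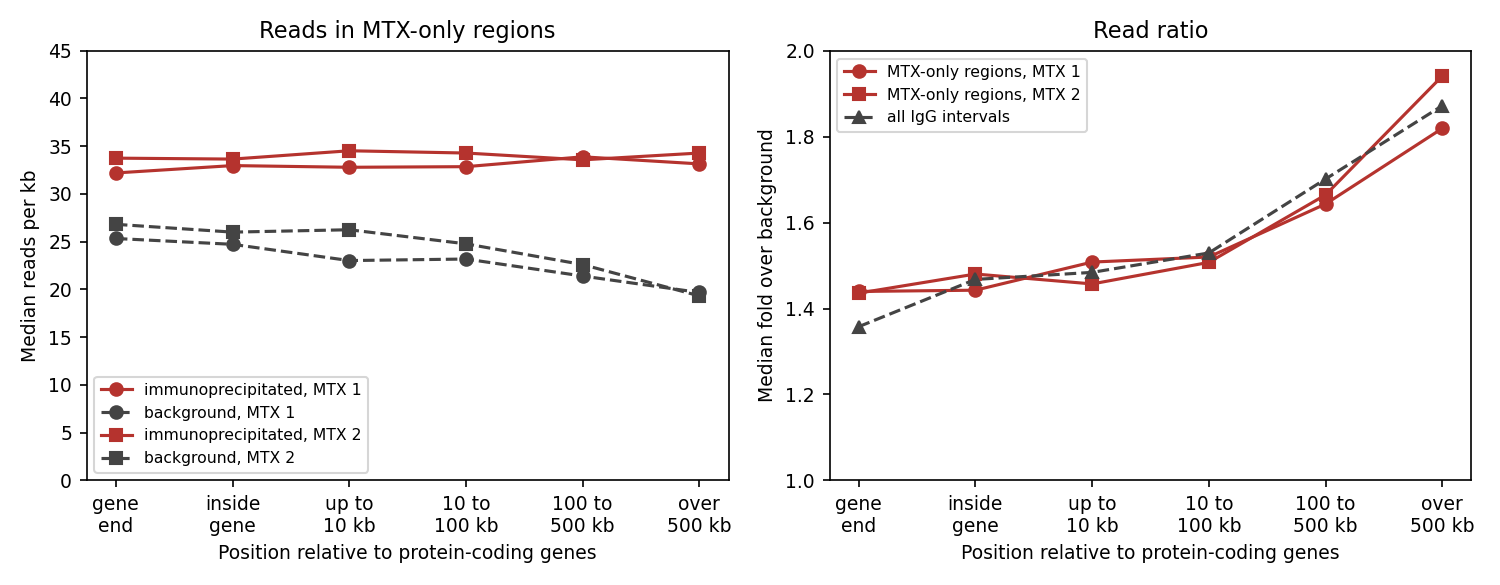
Median immunoprecipitated and background reads per kb and median fold of MTX-only regions by distance from protein-coding genes, for the 2 MTX libraries, with the fold of all IgG intervals for comparison. Immunoprecipitated reads, from which the intervals were called, stay level while background falls. The fold is highest over 500 kb away in every library drawn (1.82, 1.94 and 1.87 for IgG).

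The share called at an adjusted p under 0.05 in both MTX libraries was also highest far from genes. It was 63.6% at gene ends, 73.4% inside genes away from ends, 72.9% outside genes within 10 kb, 86.9% over 10 kb from genes and 98.0% over 500 kb from genes. The same share by location was not computed for other classes of regions or for IgG, so it cannot be called particular to MTX-only regions. When regions were ranked by the library in which their best interval ranked worse, 8 of the first 10 and 63 of the first 100 lay over 10 kb from genes. Of the last 200, 49 lay that far and 34 were at gene ends.

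Among regions over 10 kb from genes, distances were large. The median was 115 kb, 228 regions were over 100 kb from any protein-coding gene, 19 were over 1000 kb, and the farthest was 2110 kb from Pcdh9, a protocadherin gene. Long noncoding RNA genes were overlapped by 61 of the 435, or 14.0%, and by 102 of all 1090 regions. The share in other classes of regions is not given here, so 14.0% cannot be called particular to MTX-only regions. The region ranked first of all 1090 lay 60.1 kb from Rgs18, a regulator of G-protein signalling in blood cells, at chr1:144685401-144692600. It had 178 immunoprecipitated and 75 background reads in MTX library 1, and 171 and 68 in MTX library 2. The folds were 2.55 (exact 95% interval 1.93 to 3.38) and 2.82 (2.12 to 3.79), and each lay inside the interval of the other. A first rank needs a low p in both libraries, so agreement in leading regions does not stand for the rest. An interval of control library 1 lay 800 bp from this region, an IgG interval 2600 bp, and the nearest of control library 2 was 75600 bp away.

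A region 115 kb from Sucnr1, the succinate receptor gene, had high folds in both libraries. At chr3:60202201-60204400 it held 90 immunoprecipitated and 18 background reads in MTX library 1, a fold of 5.36 (3.21 to 9.46). In MTX library 2 it held 58 and 11, a fold of 5.91 (3.07 to 12.5). The other region with both folds over 3 lay 611 kb from Chordc1, which encodes a co-chaperone, at chr9:17678201-17681400. Its reads were 85 and 22 in MTX library 1 (fold 4.15) and 105 and 34 in MTX library 2 (fold 3.46). Background counts of 11 to 34 set the wide intervals of these folds. The nearest control interval was 13600 bp from the region near Sucnr1 and 28200 bp from the region near Chordc1, both of control library 1. IgG intervals were nearer, at 8000 and 12600 bp.

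Further regions of this kind lay 225 kb from Ndst4, a heparan sulfate sulfotransferase (folds 3.28 and 2.44), and 93.6 kb from Tacr3, the neurokinin B receptor (2.22 and 1.77). A region 1655 kb from Pcdh9 had 2.12 and 2.46, and one 43.7 kb from Slc8a1, the sodium-calcium exchanger, had 2.67 and 2.77. Near AI429214 the folds were 5.90 (2.98 to 13.0) and 2.66 (1.84 to 3.89), the first on 10 background reads. Near Kif18a, a mitotic kinesin gene 56.7 kb away, folds of 2.34 and 3.10 came from intervals that touched and shared 0 bases. The widest region away from genes, near C1ql2, also had the most reads, and its folds were only 0.978 and 1.20.

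**Figure D5:**
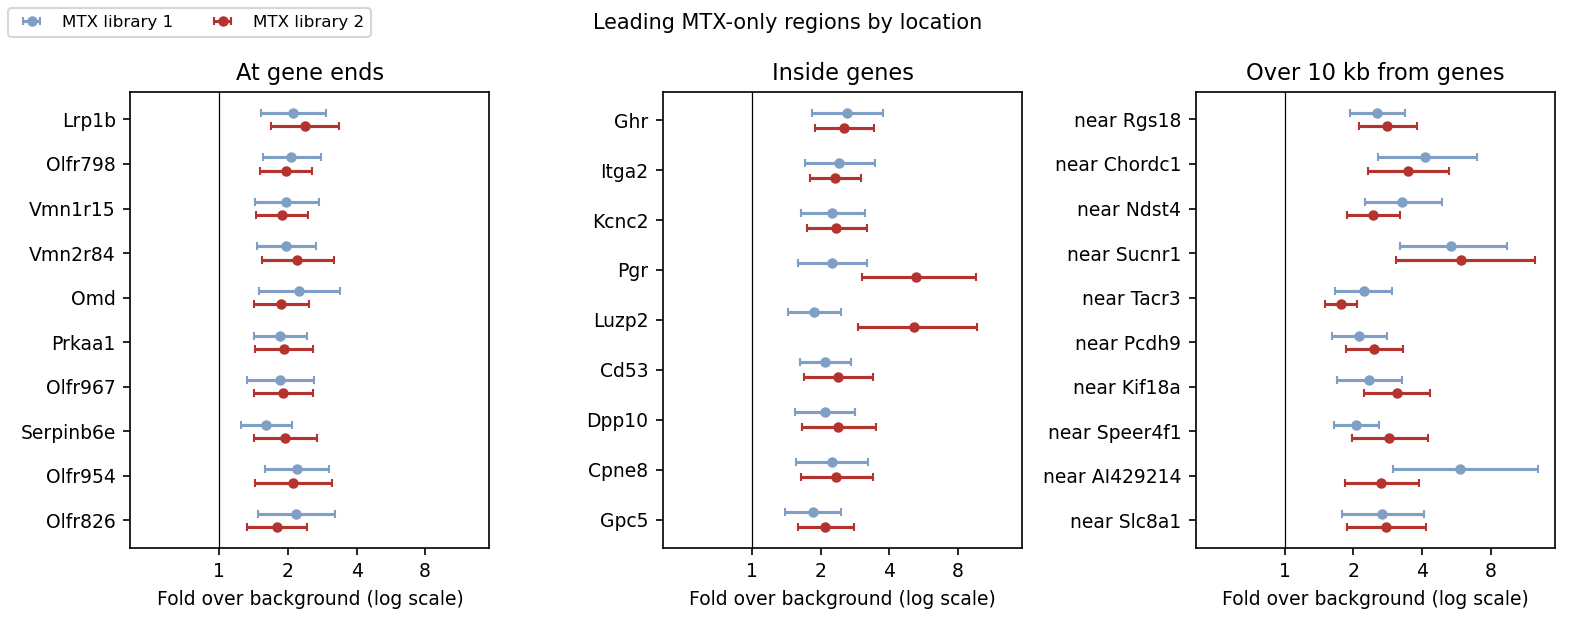
Fold over background (log scale) of the leading MTX-only regions by rank at gene ends, inside genes and over 10 kb from genes, with exact 95% intervals for counting error, in MTX libraries 1 and 2. The regions near Sucnr1 (5.36 and 5.91) are high in both libraries, while Pgr and Luzp2 are above 5 in MTX library 2 only.

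The 528 regions inside genes spread over 474 genes, and the median region lay in a gene of 124 kb. Counting genes with a region inside or at an end, 550 of 19056 protein-coding genes on these autosomes had one, 2.89%. The share rose with gene length, from 0.60% of genes up to 20 kb to 23.1% of genes over 1000 kb. Per base there was no steady rise. Regions inside genes per 100 Mb of gene went up from 30.9 in the shortest genes to 70.9 in genes of 50 to 100 kb and down to 32.9 in the longest. Unlike the share, this rate leaves out regions only at gene ends.

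The first region inside a gene was in Ghr, the growth hormone receptor gene, at chr15:3467001-3473400 within the gene's span of chr15:3317755-3583352. Reads were 112 immunoprecipitated and 46 background in MTX library 1, a fold of 2.61 (1.84 to 3.77), and 156 and 69 in MTX library 2, a fold of 2.53 (1.90 to 3.41). The 2 folds lay well within each other's interval, but the ranking favours regions with a low p in both libraries. This region was also far from other intervals, with control libraries 1 and 2 at 119400 and 125600 bp and IgG at 217600 bp. Itga2, an integrin subunit that binds collagen, had 108 and 48 reads in MTX library 1 and 186 and 90 in MTX library 2 (folds 2.41 and 2.32). Kcnc2, a voltage-gated potassium channel gene, had folds of 2.25 and 2.34. Whether the regions lie in exons or introns was not determined, since the gene table used gives spans only.

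In 2 of the first 10 genes the fold was above 5 in MTX library 2 only. Pgr, the progesterone receptor gene, had a fold of 2.25 (1.60 to 3.21) on 107 and 51 reads in MTX library 1 and 5.25 (3.03 to 9.66) on 75 and 16 in MTX library 2. Luzp2 had 1.88 (1.44 to 2.45) and 5.15 (2.92 to 9.70), intervals that do not overlap. Cpne8, a copine gene, had folds of 2.24 and 2.34 from intervals with 0 bases in common, and its nearest control interval was 56400 bp away. Cd53, a tetraspanin gene of leukocytes, had 2.09 and 2.37.

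Several genes held more than 1 region. There were 47 such genes with 101 regions, led by Dpp10 and Magi2 with 5 each and Kcnab1 with 3. Dpp10 encodes a subunit of potassium channel complexes, and its 5 regions lay within a span of 1514 kb on chromosome 1. Their folds ran from 1.14 to 2.08 in MTX library 1 and from 1.49 to 2.39 in MTX library 2. Magi2, a synaptic scaffold gene of 1485 kb, had folds of 1.35 to 1.81 and 1.10 to 1.61. Both genes are among the longest that held a region. Gpc5, a glypican gene, had 1.85 and 2.10 in one region and 2.40 and 1.61 in the other. Ttn, the gene of the muscle protein titin, had 1.53 and 3.36 in one and 1.86 and 1.62 in the other. In Gpc5 and Ttn the 2 libraries ordered the regions differently. Sox6, a developmental transcription factor gene, had 1.72 and 1.71 in one region and 1.43 and 1.64 in the other.

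At gene ends, 121 genes had a region within 1 kb, 0.635% of the 19056. Of the 107 regions, 53 were at a gene start, 41 only at 3′ ends and 12 only at genes whose strand the tables used do not give, while 1 reached a 3′ end and a gene of unknown strand. Receptor genes of smell and pheromone sensing took 16 of the 107, of which 13 were at olfactory receptor genes. These families have many near-identical copies, so reads there may be placed uncertainly. Over all olfactory receptor genes, 14 of 1021 had a region, 1.37%, which is below the share over all genes inside or at ends and above that at ends alone. Their median length was 0.949 kb, and 0.60% of all genes up to 20 kb had a region.

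The first region at a gene end was at Lrp1b, a receptor gene of the low-density lipoprotein receptor family, at chr2:40596001-40601600. Reads were 116 immunoprecipitated and 59 background in MTX library 1, a fold of 2.11 (1.53 to 2.94), and 110 and 52 in MTX library 2, a fold of 2.37 (1.69 to 3.36). Olfr798 had 2.07 and 1.96, Vmn1r15 had 1.97 and 1.88, and Vmn2r84 had 1.97 and 2.19. The region at Vmn1r15, whose promoter window is printed above, had an interval of control library 1 at 200 bp. Olfr954 had 2.18 and 2.11, Olfr967 had 1.85 and 1.90 and Olfr826 had 2.17 and 1.79, with an IgG interval 400 bp from the last. Omd, which encodes osteomodulin, a proteoglycan of bone, had 2.23 and 1.86. Prkaa1, a catalytic subunit of the energy sensor AMPK, had 1.85 (1.43 to 2.42) and 1.92 (1.43 to 2.58) at chr15:5176001-5181800. Calca, the gene of calcitonin and its related peptide, had the most reads at a gene end, 319 and 205 in MTX library 1 and 219 and 165 in MTX library 2. Its folds were lower than those of Lrp1b, 1.67 and 1.49. Trmt13, a transfer RNA methyltransferase gene, had the widest region at a gene end, with folds of 1.74 and 1.20.

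Promoter windows were overlapped by 43 of the 1090 regions, which reached 50 of 18524 windows, of 47 genes. Of the 50, 14 lay wholly inside intervals of both MTX libraries. The share of other classes of regions over a window is not given here. The 43 regions had lower folds than the rest, with medians of 1.28 and 1.42 against 1.51 and 1.54, and 22 of the 43 were called in both libraries, 51.2%. The 26 regions over windows with 10 or more CpG dinucleotides, such as those of Dhx29, Hebp1 and Mindy2 above, had medians of 1.20 and 1.39. The 17 over windows with fewer, such as Vmn1r15 and Olfr982, had 1.49 and 1.49.

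The overlapped windows resembled promoters at large in base composition. Their median GC content was 57.3% against 56.7% over 18524 windows on these autosomes, with 16 and 13 CpG dinucleotides. On both strands, the TATA box letters TATAAA were found in 12.0% against 12.8% of all windows, CCAAT in 38.0% against 38.2%, the GC box letters GGGCGG in 62.0% against 46.7% and the E-box CACGTG in 12.0% against 7.73%. Among the windows printed above, Vmn1r15 held the TATA box letters and CCAAT, Dhx29 held CCAAT, Hebp1 held all but the TATA box letters, Mindy2 held the GC box letters, and Olfr982 held none of the 4. These are matches of letters in a window, not sites of binding. Some of the overlapped windows share bases, as those of Dhx29 and Mtrex do, so they are not all separate sequences.

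In each list of genes closest to KDM6A and to folate, 1 gene held a region. Among 9 genes of the KMT2C and KMT2D complexes and the KDM6 demethylases on these autosomes, Kmt2c alone had one (11.1%), with folds of 1.81 and 1.78, and 2 had a control-only region. It lay inside the gene at chr5:25473801-25479000, with 106 and 63 reads in MTX library 1 and 92 and 58 in MTX library 2. The intervals of the 2 libraries covered 3200 and 2200 bp and shared 200 bp. Control libraries 1 and 2 had intervals 4200 and 5400 bp away, and IgG had one at 4600 bp. Among 8 Polycomb repressive complex 2 genes, Ezh2, its catalytic subunit, had one (12.5%) with folds of 1.11 and 1.23, and its adjusted p in MTX library 1 was 0.141. Among 38 folate and one-carbon genes, Ahcyl1, a relative of S-adenosylhomocysteine hydrolase, had one (2.63%) at its 3′ end. Its folds were 1.62 and 1.46, and an interval of control library 1 lay 200 bp from it. Each of these shares rests on 1 gene, beside the 2.89% over all genes. Kmt2c spans 227 kb, Ezh2 65.0 kb and Ahcyl1 33.4 kb. A region was held by 15.8% of all genes of 200 to 500 kb, 5.26% of those of 50 to 100 kb and 2.32% of those of 20 to 50 kb.

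None of 28 pluripotency genes and none of 57 neural tube closure genes had a region, beside 2.89% of all genes, and 3 of the neural tube closure genes had a control-only region. Median gene length was 8.19 kb and 51.2 kb in these lists. Of all genes, 0.60% of those up to 20 kb and 5.26% of those of 50 to 100 kb had a region. Among 51 Wnt pathway genes 2 had a region (3.92%) and 5 a control-only region. Wls, which escorts Wnt ligands to the cell surface, had folds of 1.31 and 1.30, and Tcf7l1, a transcription factor of the pathway, had 0.999 and 1.05. Msi1, an RNA-binding protein of neural progenitors, was the only 1 of 40 progenitor and patterning genes (2.50%), with 1.24 and 2.79. Col5a2, a collagen gene, was the only 1 of 19 fibroblast markers (5.26%), with 2.05 and 1.65. None of 17 germline genes had a region, and 2 had a control-only region.

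The genes of the 2 neuronal lists are long. Of 65 synaptic adhesion and axon guidance genes, 6 had a region (9.23%), and 13 had a control-only region. Among them were Cntnap5a, Csmd3 and Sema3a. Of 32 glutamate and GABA receptor genes, 5 had a region (15.6%), among them the glutamate receptor genes Grm3, Grm7 and Gria4, and 2 had a control-only region. Median gene length was 578 kb and 239 kb in these lists, against 17.9 kb over all genes, and 15.8% of all genes of 200 to 500 kb and 22.8% of those of 500 to 1000 kb had a region. Grm7 had a region with folds of 3.32 and 1.85 and another with 2.39 and 1.78. Grm3 had 1.60 and 2.30. One region of Gria4 had 1.57 and 1.87, and the other had 2.91 and 1.60. Cntnap5a had 1.71 and 3.75, Csmd3 had 1.40 and 1.98, and Sema3a, an axon guidance ligand gene, had 1.34 and 2.15. The regions of Grm7 and the last of Gria4 had the higher fold in MTX library 1. The others named here had it in MTX library 2, as did 584 of all 1090 regions.

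Zinc finger genes named Zfp, many of which encode repressors of repeated DNA, had regions at 12 of 370, 3.24%, close to the 2.89% over all genes, and control-only regions at 12. At gene ends 5 of them had one, 1.35%, against 0.635% over all genes. Zfp148 had 2 regions, with folds of 3.61 and 1.53 in the first and 1.06 and 1.15 in the second. The first rested on 64 immunoprecipitated and 19 background reads in MTX library 1. Zfp53 had 1.71 and 1.91, and Zfp942 had 2.11 and 1.55. Of 122 type 2 vomeronasal receptor genes, 3 had a region, among them Vmn2r10 at its 3′ end with 1.87 and 1.50, and Vmn2r63 with 1.25 and 1.08. An IgG interval lay 200 bp from the region at Vmn2r10.

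MTX-only regions were spread along chromosomes. Neighbouring regions lay 957 kb apart at the median, and 98 of 1072 neighbouring pairs were within 100 kb. Over 1000 kb from any protein-coding gene, several regions had Pcdh9 as their nearest gene, the farthest of them at chr14:90896801-90903400. It had 117 immunoprecipitated and 71 background reads in MTX library 1 (fold 1.77) and 104 and 57 in MTX library 2 (fold 2.04).

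The share of MTX-only regions varied between chromosomes. It ran from 0.882% of regions without IgG on chromosome 18 and 0.920% on chromosome 19 to 2.21% on chromosome 10. Chromosome 1 held the most, 118. The exact 95% intervals were 0.515% to 1.41% for chromosome 18 (17 regions) and 0.442% to 1.69% for chromosome 19 (10 regions), both below the 1.73% over all autosomes used. For chromosome 10 (95 regions) the interval was 1.79% to 2.70%, above it. These chromosomes were singled out among 18 after their values were seen.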

How the data were processed

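The submitters' processing notes name Bowtie2 and mm10, without a version. The interval caller is not given in the sources used, and neither are its settings. The deposited counts are whole immunoprecipitated and background reads per interval, unnormalized, in intervals called per library on a 200 bp grid. The deposited fold is their ratio times 1 constant per list (1.07 in MTX library 1, 1.12 in MTX library 2). The deposited p-value and adjusted p-value of each interval were used as given. Amplification ran over 30 PCR cycles, per the labels' protocols, so reads are not independent molecules and intervals cover counting error only.

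Intervals were merged, annotated and counted in Python 3.11.15 with pandas 2.3.3, numpy 2.4.6 and scipy 1.17.1, and plotted with matplotlib 3.10.9. Merging and overlap were tested on simulated data. A region's fold sums the reads of a library over its intervals in the region. Shares have exact (Clopper-Pearson) 95% intervals, and intervals of folds come from the exact binomial interval of the immunoprecipitated among all reads. Coordinates are mm10, counted from 1. Genes are the 21887 protein-coding genes of a RefSeq table of GRCm38.p6, the same build, of which 4395 had no strand.

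Regions and gene lists were chosen with earlier results of these data known. Regions were ranked by the worse of their rank fractions in the MTX lists (deposited p, then fold). Named are the first 10 at gene ends, inside genes and over 10 kb from genes, without predicted symbols. Also named are those with most reads and the widest, genes with 2 or more regions, and up to 4 per gene list. The regions at Gak, near Man1a and Alkbh8 and farthest from genes, and the genes of promoter windows and microRNAs, were named after their values were seen. Alternatives changed the merging, the part of each list used, the treatment of near control and IgG intervals, chromosome 11, the gene windows and the p threshold, and left out each library. Input libraries were not analysed here. A few regions and genes that this rule takes in are not reported here, in the text or the figures.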

Additional observations from a re-analysis of the deposited data

How the results depend on the processing

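Of 83 alternative values, 53 were counted as the same as the main value and 30 as moved. For shares and folds, the same means within the spread of the main value. For the number of regions a wider band was used, which is not a counting error. Numbers from 947 to 1415 were counted as the same as 1090, while 548 and 1703 were counted as moved. That label therefore does not mean agreement within error. Merging only on shared bases made the share of regions with common bases 100% by construction. With the better 50% of each list, there were 548 regions, 44.2% inside genes and 6.93% at gene ends, with 100% called and median folds of 1.73 and 1.85. With lists of equal length 93.0% were called, with folds of 1.54 and 1.64, and with intervals of adjusted p under 0.05 the folds were 1.57 and 1.58. Keeping chromosome 11 gave 1253 regions with 74.3% called. Windows of 5 kb put 18.0% at gene ends, any overlap put 52.8% inside genes, and a threshold of 0.01 left 66.1% called. The number of regions changed most when 1 library was left out. It was 1415 without control library 2, still counted as the same, and 1703 without control library 1. Without MTX library 2 it was 10674, and without MTX library 1 it was 12964. The ranges over these were 43.1% to 54.1% inside genes, 5.75% to 10.9% at gene ends, 74.9% to 90.9% called (where an MTX library was left out, called in the remaining one alone), and folds of 1.48 to 1.54 (MTX library 1) and 1.49 to 1.63 (MTX library 2). The share with common bases was 95.8% to 96.0% without a control library. Wider windows and any overlap can only raise the share they define, and a lower threshold can only reduce it. Leaving out a library removes a condition of the rule, so it can only raise the number of regions. Keeping the better intervals by p selects on the values behind the called share and the folds. For the other values that moved the cause was not tested.

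No paired analysis was possible because the lists hold no reads of the control libraries at these regions. For the same reason, absence of an interval cannot be told apart from reads just under the caller's limit, and the full depth is unknown. Regions were chosen by the presence of intervals, and no value comes from a test.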
